A study of Mus musculus with 6 samples.

Results

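The unfolded protein response and the ATF4 stress response were followed through 36 genes in melan-a, an immortal mouse melanocyte line that goes back to epidermal melanoblasts of C57BL/6 embryos. The genes were taken by name from the known pathway, but with earlier results of these data known. They were kept in 2 lists, 22 genes of the endoplasmic reticulum (ER) and 14 genes of the ATF4 branch. All 36 had a probe set among the 18193 genes of the array, and all 36 reached the floor, 63.7 units of signal, on all 6 arrays, so no member was lost and no ratio is a bound. The cells had been transduced with delta-BRAF-ER, an active BRAF kinase that works once tamoxifen is given, alone or together with SNAIL2, ZEB2, ZEB1 or TWIST1, transcription factors of embryonic development. The groups were BRAF activated with ZEB2, with SNAIL2, with TWIST1 or with ZEB1, BRAF activated without an added factor (BRAF-on), and BRAF not activated (BRAF-off), with 1 array each. Each added factor was set against BRAF-on, and BRAF-on against BRAF-off. The sources used here do not say whether a group was a clone or a pool, or how long BRAF was active. With 1 array per group there is no replicate spread and no test, and every ratio below describes 2 arrays.

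Proteins bound for the cell surface, the melanosome or secretion fold in the ER, where chaperones hold them and disulphide isomerases close their bonds. When unfolded proteins build up, 3 sensors respond. IRE1 (gene Ern1) splices the messenger of the transcription factor XBP1, ATF6 is cut to release a transcription factor, and PERK (gene Eif2ak3) phosphorylates the initiation factor eIF2-alpha, which slows translation but favours that of ATF4. ATF4 then raises genes for amino acid synthesis and transport and the factor CHOP (gene Ddit3), and it also responds to amino acid shortage and other stresses that need no unfolded protein. Melanocytes carry a heavy secretory load, because the glycoproteins of the melanosome pass through the ER.

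ATF6 and XBP1 are known to act through the ER stress response element, ERSE, which reads CCAAT, 9 bases of any kind and CCACG. A shorter form, ERSE-II, reads ATTGG, 1 base of any kind and CCACG. ATF4 acts with C/EBP proteins on an element whose core is written TGATGNAA here. Exact matches on both strands were sought in RefSeq promoters (GRCm38.p6) of 300 bases, 250 before and 50 after the gene's start, which were held for 33 of the 36 members. ERSE was found in 8 of the 19 ER genes with a promoter (42.1%), in none of the 14 ATF4 genes and in 0.137% of all 27025 genes of the promoter table. These are the 9 matches, shown because the element is far more frequent among the ER genes than among all genes. Element and genes were both taken from what is known of the pathway, so this difference is no independent support for the list. Capitals mark the element, and each line gives 30 bases on the gene's own strand, 5′ to 3′.
Hspa5, chr2:34772020-34772049, + strand: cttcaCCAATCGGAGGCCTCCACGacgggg
Hsp90b1, chr10:86705632-86705661, - strand: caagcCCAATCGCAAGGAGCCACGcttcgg
Hsp90b1, chr10:86705527-86705556, - strand: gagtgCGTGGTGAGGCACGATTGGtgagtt
Calr, chr8:84847069-84847098, - strand: caacgCGTGGTCGACCCTCATTGGcccata
Canx, chr11:50325794-50325823, - strand: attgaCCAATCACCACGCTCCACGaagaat
Pdia6, chr12:17266486-17266515, + strand: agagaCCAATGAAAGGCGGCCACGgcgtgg
Dnajc3, chr14:118937822-118937851, + strand: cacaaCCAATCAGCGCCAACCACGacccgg
Creld2, chr15:88819515-88819544, + strand: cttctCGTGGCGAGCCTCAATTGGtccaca
Syvn1, chr19:6046527-6046556, + strand: cgcaaCCAATCGGCGGTAGCCACGggaaca

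In Calr, Creld2 and the second Hsp90b1 match the element lies on the opposite strand, so its reverse complement is printed there. ERSE-II was found in 2 of the 19 ER genes, Dnajb11 and Herpud1, against 0.0444% of all genes. The ATF4 element was found in 5 of the 14 ATF4 genes (35.7%) and in 1 ER gene, Herpud1, against 4.51% of all genes. The limit given for ERSE holds for these shares too. The matches are shown in the same way because Vldlr and Slc7a11, 2 members that were at least 2-fold apart below, hold one. The ATF4 matches of Herpud1, Trib3, Chac1 and Vldlr and the second of Slc7a11 also lie on the opposite strand.
Dnajb11, ERSE-II, chr16:22857843-22857872, + strand: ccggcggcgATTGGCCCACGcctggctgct
Herpud1, ERSE-II, chr8:94386368-94386397, + strand: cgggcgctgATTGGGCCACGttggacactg
Herpud1, ATF4 element, chr8:94386306-94386335, + strand: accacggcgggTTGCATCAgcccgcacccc
Trib3, ATF4 element, chr2:152344028-152344057, - strand: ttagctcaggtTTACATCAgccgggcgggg
Chac1, ATF4 element, chr2:119351038-119351067, + strand: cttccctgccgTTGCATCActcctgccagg
Vldlr, ATF4 element, chr19:27216809-27216838, + strand: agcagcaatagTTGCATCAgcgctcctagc
Asns, ATF4 element, chr6:7693214-7693243, - strand: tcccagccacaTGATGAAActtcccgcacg
Slc7a11, ATF4 element, chr3:50443661-50443690, - strand: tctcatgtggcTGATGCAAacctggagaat
Slc7a11, ATF4 element, chr3:50443642-50443671, - strand: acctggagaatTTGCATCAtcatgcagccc

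The 250 bases before the start are printed for 3 members. Hspa5 is the classical ERSE gene, Herpud1 holds ERSE-II and the ATF4 element together, and Slc7a11 holds 2 ATF4 elements facing each other. Capitals again mark exact matches to the elements searched.
Hspa5, chr2:34771840-34772089, + strand: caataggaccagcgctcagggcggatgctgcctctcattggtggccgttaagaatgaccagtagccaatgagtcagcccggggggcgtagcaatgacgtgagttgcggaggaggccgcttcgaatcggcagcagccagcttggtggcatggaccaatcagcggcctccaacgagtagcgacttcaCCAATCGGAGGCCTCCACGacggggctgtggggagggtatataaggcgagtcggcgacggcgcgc
Herpud1, chr8:94386179-94386428, + strand: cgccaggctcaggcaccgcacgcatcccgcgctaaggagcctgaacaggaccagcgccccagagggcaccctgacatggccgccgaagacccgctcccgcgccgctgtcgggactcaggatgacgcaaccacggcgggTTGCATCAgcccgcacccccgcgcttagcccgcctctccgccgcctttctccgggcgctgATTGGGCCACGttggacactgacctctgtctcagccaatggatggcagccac
Slc7a11, chr3:50443614-50443863, - strand: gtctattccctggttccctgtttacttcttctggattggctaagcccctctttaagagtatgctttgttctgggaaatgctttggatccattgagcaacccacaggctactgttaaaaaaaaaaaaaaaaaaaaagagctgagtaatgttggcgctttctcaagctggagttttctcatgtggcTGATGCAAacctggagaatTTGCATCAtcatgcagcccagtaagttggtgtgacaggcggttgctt

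A match is a description of the sequence, and the absence of one says only that these letters are not in this window. The positions fell between -212 and -44 from the start for ERSE and between -200 and 15 for the ATF4 element.

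**Figure D1:**
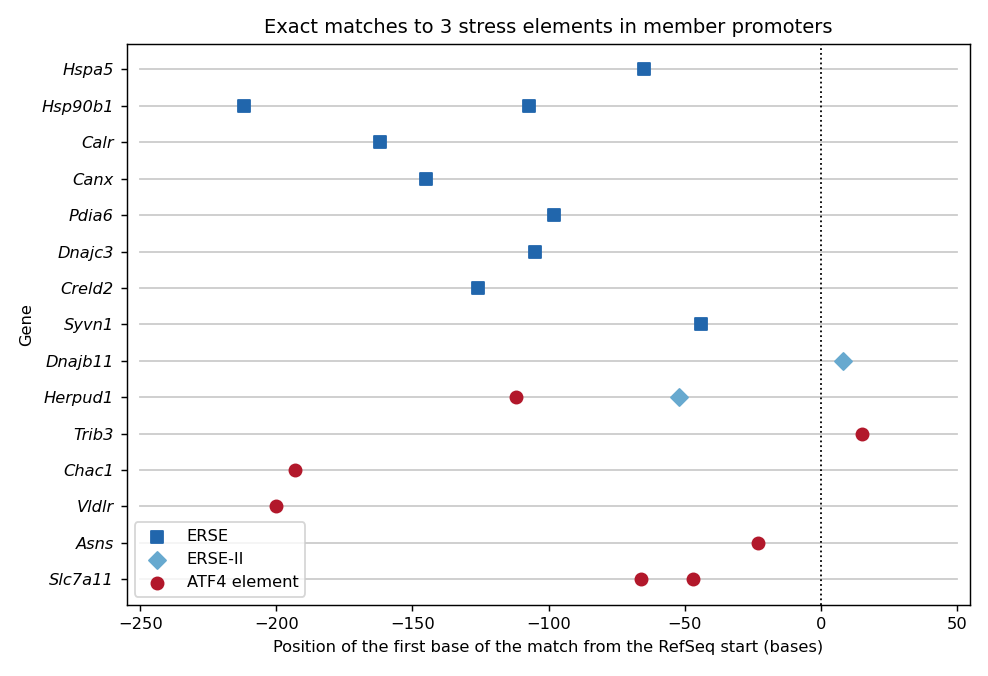
Position of each exact match from the RefSeq start of the gene, in bases (x axis), for the 15 members that hold one (y axis); squares are ERSE, diamonds ERSE-II and circles the ATF4 element, each on a grey line for the window searched. All ERSE matches lie before the start, while those of Dnajb11 (8) and Trib3 (15) lie just after it.

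Each array held 45101 probe sets, and the trimmed mean signal was 500.0 on all 6, a scaling made before deposit. The ratio of 3' to 5' probe sets, a sign of RNA quality, lay between 1.36 (TWIST1) and 1.54 (ZEB2) for beta-actin and between 0.792 and 0.839 for Gapdh. The array with SNAIL2 stands apart. Its 24 probe sets for poly-A control transcripts were at a median of 2.55 times their signal in BRAF-on, against 0.880 to 1.42 times on the other arrays, and it held 34.6% of the highest and 26.8% of the lowest values of the genes measured on all 6. The 4 added factors had 9 measured probe sets, and none reached 2-fold over BRAF-on on its own factor's array. The highest was 1.70-fold, and the lowest, for Snai2, stood at a log2 ratio of -1.51. The probe sets may not cover the introduced sequences, and the arrays are named by their labels throughout. All 8 melanocyte markers were at or above the floor on every array except that with TWIST1, which had 3 (Mitf, Sox10 and Pax3), while Tyr, Tyrp1, Dct, Pmel and Mlana were under it. With ZEB1 they were above the floor but low, and 6 of the 8 fell short of their BRAF-on signal by 2-fold or more, with a median log2 ratio of -1.37.

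The ER list stood highest on the array with SNAIL2. Of the 22 ER genes, 15 had their highest signal of the 6 arrays with SNAIL2 (68.2%), against 34.6% of the 9937 genes measured on all 6 arrays. Relative to BRAF-on, 17 of the 22 lay above 0 with SNAIL2 and the median log2 ratio was 0.35, against 54.5% of genes above 0 and a median of 0.06 over all genes. The ATF4 list differed: 6 of its 14 genes were highest with ZEB1 (42.9%, against 27.6% of all genes), and 5 were lowest in BRAF-off (35.7%, against 11.9%). Of those 6, Trib3 (1381 with ZEB1, 1349 with TWIST1) and Vldlr (1157 and 1118) were nearly level on the 2 arrays. Trib3, Vldlr and Sesn2 also each had another probe set that was highest on another array. The list was split with ZEB1, where 4 of its genes were lowest (28.6%, against 22.3%). With SNAIL2, 3 ATF4 genes were highest and 3 lowest (34.6% and 26.8% of all genes). TWIST1 was the highest array for 1 ER gene and 3 ATF4 genes (16.9% of all genes), ZEB2 for 1 and 0 (5.63%), BRAF-on for 1 and 1 (7.34%) and BRAF-off for 2 and 1 (7.95%).

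**Figure D2:**
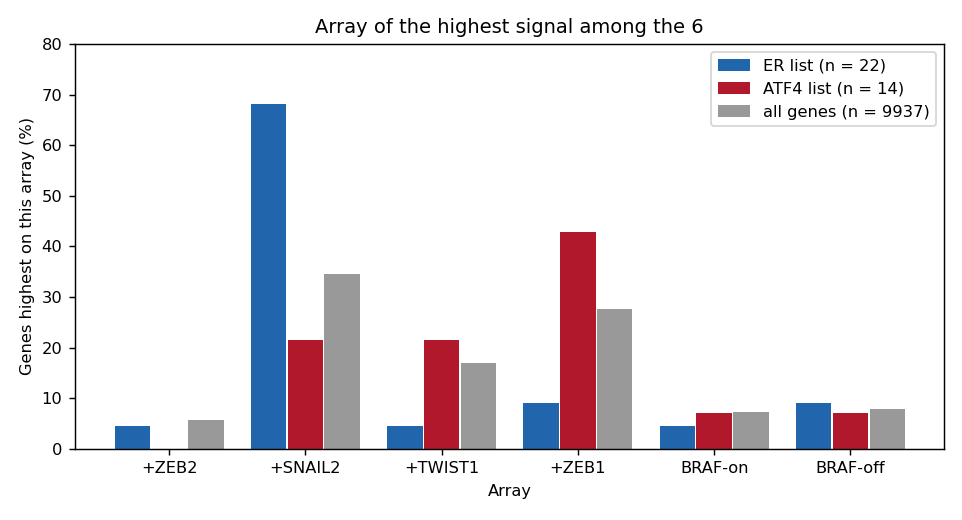
Share of genes (y axis, percent) whose highest signal of the 6 arrays fell on the array given on the x axis, for the 22 ER genes (blue), the 14 ATF4 genes (red) and the 9937 genes measured on all 6 arrays (grey). In the probe sets used, the ER list peaks with SNAIL2 at 68.2%, against 34.6% of all genes. The ATF4 list peaks with ZEB1 at 42.9%, against 27.6%, with Trib3 and Vldlr nearly level on the array with TWIST1.

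By the size used here, at least 2-fold, few members were apart in any comparison. In BRAF-on against BRAF-off none of the 36 was, with 1.04% of 11200 genes at least 2-fold higher and 0.384% lower. With ZEB2 against BRAF-on none of the 36 was either, with 1.76% of 11322 genes higher and 0.583% lower. With SNAIL2 1 member was higher (Sdf2l1) and 1 lower (Ddit3), with 5.61% of 11416 genes higher and 6.42% lower. With TWIST1 2 members were higher (Slc7a11 and Vldlr) and none lower, with 2.03% of 11334 genes higher and 2.02% lower. With ZEB1 3 members were higher (Ddit4, Vldlr and Dnajb9) and none lower, with 4.49% of 11614 genes higher and 3.93% lower. The counts of 0 to 3 in 36 are small, and most of the description that follows concerns differences under 2-fold.

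At 1.5-fold, 2 members were higher and none lower in BRAF-on against BRAF-off (4.01% and 2.39% of all genes). With ZEB2 1 was higher and 1 lower (6.01% and 3.98%), with TWIST1 4 and 3 (6.38% and 6.28%), and with ZEB1 7 and 2 (14.8% and 10.8%). With SNAIL2 10 were higher and 3 lower (17.3% and 15.7%), and 9 of the 10 were ER genes. By direction alone, 14 of the 22 ER genes lay below 0 in BRAF-on against BRAF-off (50.3% of all genes), while 12 of the 14 ATF4 genes lay above it (49.7%). With ZEB2, 18 ER genes lay above 0 (49.2% of all genes) and 9 ATF4 genes below it (50.8%). With SNAIL2, 7 ATF4 genes lay below 0 (45.5%). With TWIST1, 11 ER genes lay on each side (50.4% of all genes above, 49.6% below) and 10 ATF4 genes above 0. With ZEB1, 11 ER genes lay on each side and 9 ATF4 genes above 0 (56.7%).

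Set against BRAF-off in place of BRAF-on, none of the 36 was 2-fold apart with ZEB2 (1.02% of genes higher, 0.325% lower) or with SNAIL2 (4.0% and 5.31%). With TWIST1 4 were higher and 1 lower (3.11% and 2.61%), and with ZEB1 5 were higher and 1 lower (7.06% and 5.2%).

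**Figure D3:**
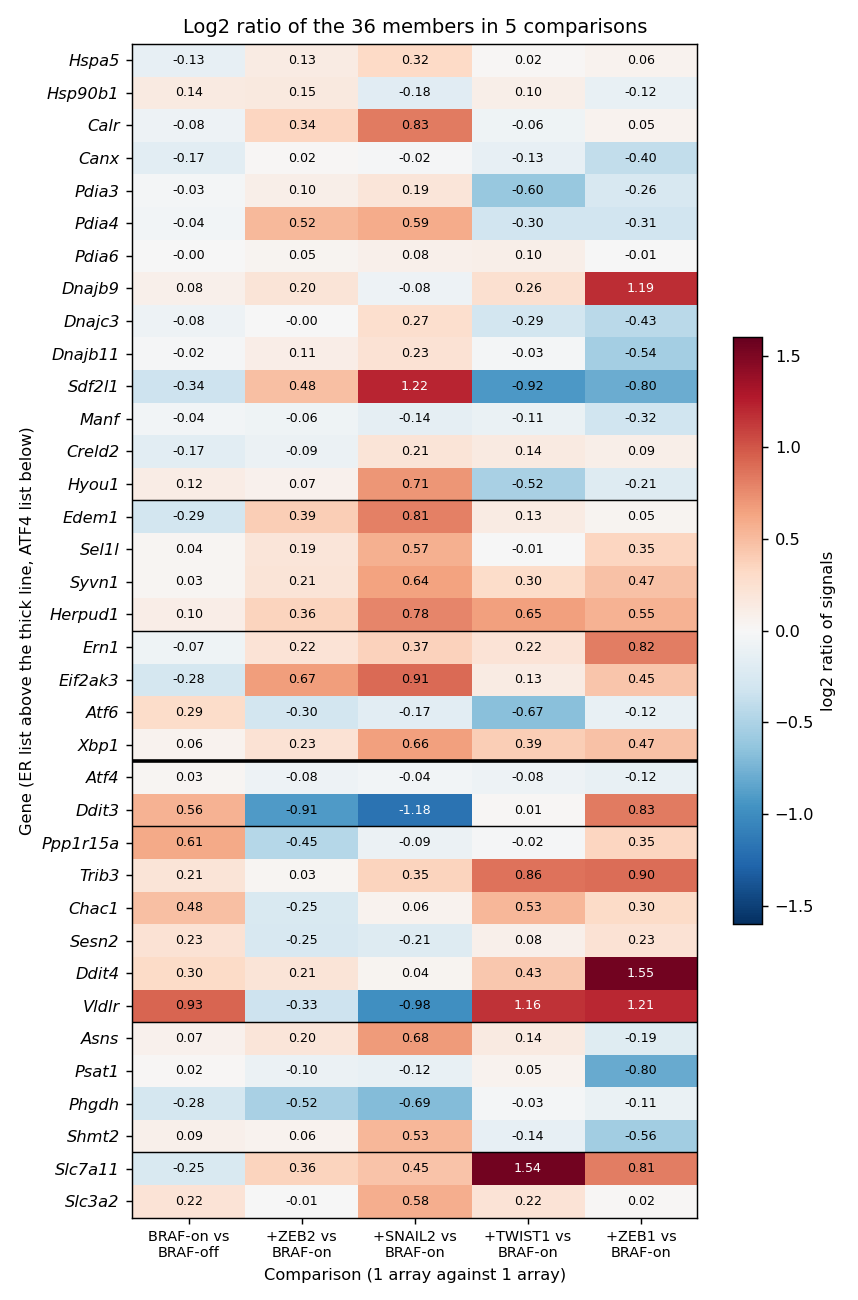
Log2 ratio of signals (colour and printed value) of the 36 members (rows, by role) in the 5 comparisons (columns), each of 1 array against 1 array; the thick line parts the ER list from the ATF4 list. With SNAIL2 the 4 degradation genes stand between 0.57 and 0.81, while Ddit3 is at -1.18, and the 6 feedback genes lie above 0 with ZEB1.

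Hspa5 encodes BiP, the main ER chaperone of the HSP70 family, and its ERSE is printed above. Its signal was 18057 with ZEB2, 20598 with SNAIL2, 16691 with TWIST1 and 17145 with ZEB1, against 16498 in BRAF-on and 18101 in BRAF-off. In this probe set the whole span is 1.25-fold, with the array with SNAIL2 the high one and BRAF-on the low one. The other Hspa5 probe sets were lowest with ZEB1. The dimmest of them was highest in BRAF-off, and with SNAIL2 it was at a log2 ratio of -0.10 to BRAF-on. Hsp90b1, the ER member of the HSP90 family, also spanned only 1.26-fold, but was lowest with SNAIL2, at 11634 against 13177 in BRAF-on. A second, dimmer Hsp90b1 probe set was lower still with SNAIL2 (log2 ratio -0.92) and with ZEB1 (-0.87), so the 2 probe sets differ in size.

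Calr encodes calreticulin, a chaperone that binds sugar chains on glycoproteins. Its signal was 14017 with ZEB2, 19645 with SNAIL2, 10588 with TWIST1 and 11476 with ZEB1, against 11074 in BRAF-on and 11682 in BRAF-off. Only the arrays with ZEB2 and SNAIL2 stand above the other 4, by log2 ratios of 0.34 and 0.83 to BRAF-on. The other 2 Calr probe sets were at 1.04 and 1.18 with SNAIL2. Canx, the membrane-bound counterpart calnexin, was at -0.02 with SNAIL2 and lowest with ZEB1, at 8223 against 10843 in BRAF-on. Its dimmer probe sets differed, at -0.33 and 0.55 with SNAIL2 and at -0.60 and 0.10 with ZEB1.

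The disulphide isomerases differed among themselves. Pdia4 was at 2607 with ZEB2, 2741 with SNAIL2, 1475 with TWIST1 and 1473 with ZEB1, against 1821 in BRAF-on and 1877 in BRAF-off, so that the arrays with ZEB2 and SNAIL2 were high and those with TWIST1 and ZEB1 low. Pdia3, which works with calnexin and calreticulin on glycoproteins, was lowest with TWIST1, at 5276 against 8012 in BRAF-on (log2 ratio -0.60). A dim second Pdia3 probe set did not share this, at 0.17 with TWIST1 and lowest in BRAF-on. Pdia6 varied least of the 36, by 1.08-fold over all 6 arrays.

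Sdf2l1, a partner of the BiP co-chaperone ERdj3, had the widest span of the ER list. Its signal was 1776 with ZEB2, 2958 with SNAIL2, 675 with TWIST1 and 733 with ZEB1, against 1274 in BRAF-on and 1609 in BRAF-off. It was 2.32-fold higher with SNAIL2 than in BRAF-on, though 1.84-fold higher than in BRAF-off, and the arrays with TWIST1 and ZEB1 were the 2 lowest, at log2 ratios of -0.92 and -0.80. The array with SNAIL2 lay 4.38-fold above that with TWIST1. Hyou1, the exchange factor that resets BiP, was at 2931 with SNAIL2 and 1252 with TWIST1, against 1797 in BRAF-on. A dimmer Hyou1 probe set was at a log2 ratio of 1.84 with SNAIL2 but also above 0 with TWIST1 (0.19) and ZEB1 (0.70), where the one used was at -0.52 and -0.21, so the low end depends on the probe set.

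Of the 3 J-domain co-chaperones of BiP, Dnajb9 (ERdj4) went its own way. Its signal was 1269 with ZEB2, 1044 with SNAIL2, 1316 with TWIST1 and 2508 with ZEB1, against 1101 in BRAF-on and 1038 in BRAF-off. The array with ZEB1 alone was high, 2.28-fold above BRAF-on, and the other 5 lay close together. Dnajb11 (ERdj3) and Dnajc3 (P58IPK, an inhibitor of PERK) were lowest with ZEB1, at log2 ratios of -0.54 and -0.43 to BRAF-on, and highest with SNAIL2, at 0.23 and 0.27. All 5 Dnajc3 probe sets lay below 0 with ZEB1, but with SNAIL2 1 of them was at -0.16. In the probe sets used, 10 of the 14 folding genes lay below 0 with ZEB1, against 43.3% of all genes. Of the 14, 6 had their lowest signal there, against 22.3% of all genes. A dim probe set of Canx (0.10), of Pdia3 (0.36) and of Hyou1 (0.70) lay above 0 with ZEB1, and the other Hspa5 probe sets (-0.002 and -0.18) below it. The 2 stress-induced soluble proteins stayed close to level: Manf lay between 6009 with ZEB1 and 7706 in BRAF-off, and Creld2 between 2196 with ZEB2 and 2714 with SNAIL2.

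The 4 genes of ER-associated degradation, the route that sends misfolded proteins to the proteasome, were all highest with SNAIL2 in the probe sets used. Their other probe sets gave this for Edem1 and Herpud1 but not for Sel1l and Syvn1. Herpud1, a membrane part of the degradation complex, was at 1119 with ZEB2, 1496 with SNAIL2, 1373 with TWIST1 and 1281 with ZEB1, against 874 in BRAF-on and 814 in BRAF-off. In this probe set all 4 arrays with an added factor lay above both arrays without one, while the other Herpud1 probe set was at a log2 ratio of -0.18 with ZEB2. Edem1, a lectin that hands over misfolded glycoproteins, was 1.75-fold higher with SNAIL2 than in BRAF-on (log2 ratio 0.81), and stood at 1625 with ZEB2 against 1239 in BRAF-on (0.39).

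Sel1l and Syvn1 encode the adaptor and the ubiquitin ligase (HRD1) of the same complex. Sel1l was at 2916 with SNAIL2 and 2497 with ZEB1, against 1965 in BRAF-on. Syvn1 was at 2064 with SNAIL2 and 1824 with ZEB1, against 1319.9 in BRAF-on. The other Syvn1 probe set was highest with ZEB1, at 0.40 against BRAF-on, with SNAIL2 at 0.33. Among dimmer Sel1l probe sets the 3 brightest stood at 0.18, 0.30 and -0.09 with SNAIL2 and at 0.73, 0.82 and 0.44 with ZEB1. Over the 4 genes the median log2 ratio was 0.28 with ZEB2, 0.71 with SNAIL2, 0.22 with TWIST1 and 0.41 with ZEB1, and in BRAF-on against BRAF-off it was 0.03. The 4 comparisons with an added factor share the BRAF-on array. Set against BRAF-off the median was 0.24 with ZEB2, 0.64 with SNAIL2, 0.18 with TWIST1 and 0.44 with ZEB1.

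Among the sensors, the PERK gene Eif2ak3 was at 1408 with ZEB2, 1664 with SNAIL2, 968 with TWIST1 and 1208 with ZEB1, against 887 in BRAF-on and 1078 in BRAF-off. BRAF-on was the lowest array, which adds to the log2 ratios of 0.67 with ZEB2 and 0.91 with SNAIL2; against BRAF-off these were 0.39 and 0.63. The IRE1 gene Ern1 was highest with ZEB1, at 726 against 411 in BRAF-on, a log2 ratio of 0.82. A dim Ern1 probe set was at -0.10 there and highest in BRAF-on. Atf6 was the exception, highest in BRAF-on at 1698 and lowest with TWIST1 at 1065, which is -0.67 on the log2 scale. The other 2 Atf6 probe sets were at -0.63 and -0.53 with TWIST1, and at -0.73 and -0.85 with SNAIL2, where the probe set used was at -0.17.

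Xbp1, the transcription factor downstream of IRE1, was at 4677 with ZEB2, 6292 with SNAIL2, 5224 with TWIST1 and 5499 with ZEB1, against 3977 in BRAF-on and 3827 in BRAF-off. All 4 arrays with an added factor lay above both without one, with SNAIL2 highest at a log2 ratio of 0.66. Of the other 3 Xbp1 probe sets, the dimmest was lowest with SNAIL2, at -0.17. These signals do not separate the spliced form of the messenger from the unspliced one. In bulk RNA, a change in the share of cells that express a gene and a change in RNA per cell cannot be told apart.

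With SNAIL2 these ER values stand beside other differences of that array. Its poly-A controls were 2.55 times those of BRAF-on, and 1374 of 11416 genes were at least 2-fold apart from BRAF-on in either direction. Its melanocyte markers summed to a signal of 136532, against 67003 in BRAF-on and 90207 in BRAF-off. Their part in the ER result was not tested.

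**Figure D4:**
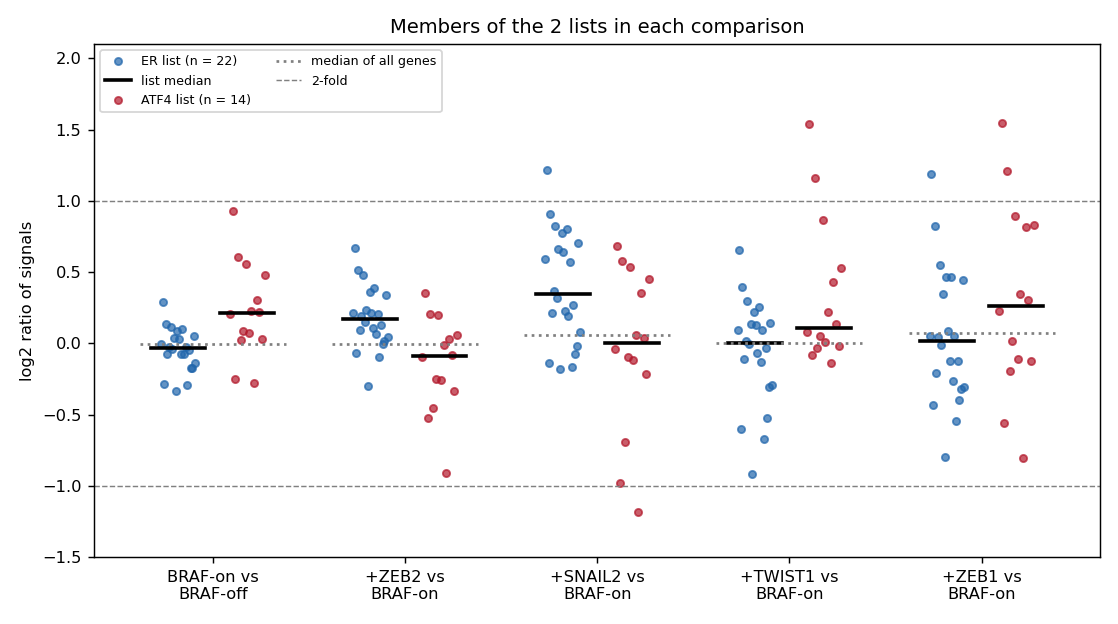
Log2 ratio of signals (y axis) of each ER gene (blue, n = 22) and each ATF4 gene (red, n = 14) in the 5 comparisons (x axis); black bars are list medians, dotted lines the median of all genes and dashed lines 2-fold. The ER median is highest with SNAIL2 (0.35), where the ATF4 list spreads from -1.18 to 0.68 around a median of 0.00055.

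The ATF4 gene itself barely moved. Atf4 had a signal of 7264 with ZEB2, 7486 with SNAIL2, 7264 with TWIST1 and 7065 with ZEB1, against 7688 in BRAF-on and 7513 in BRAF-off, a span of 1.09-fold. A second Atf4 probe set lay at log2 ratios between 0.15 and 0.34 to BRAF-on with the 4 factors. ATF4 is controlled largely through translation, which arrays do not measure.

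Ddit3 encodes CHOP, a factor that turns prolonged stress towards cell death, and it varied 4.04-fold over the 6 arrays. Its signal was 844 with ZEB2, 699.8 with SNAIL2, 1602 with TWIST1 and 2829.7 with ZEB1, against 1587 in BRAF-on and 1079 in BRAF-off. The arrays with ZEB2 and SNAIL2 were the 2 lowest, below even BRAF-off, and that with ZEB1 was the highest. Against BRAF-on the log2 ratio was -0.91 with ZEB2, -1.18 with SNAIL2, 0.01 with TWIST1 and 0.83 with ZEB1, and in BRAF-on against BRAF-off it was 0.56. Against BRAF-off, Ddit3 was at -0.62 with SNAIL2, under 2-fold, and at 1.39 with ZEB1, and the array with ZEB1 lay 2.02 above that with SNAIL2 on the log2 scale. The other Ddit3 probe set lay under the floor or at most at 69.1 and gives no second reading.

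**Figure D5:**
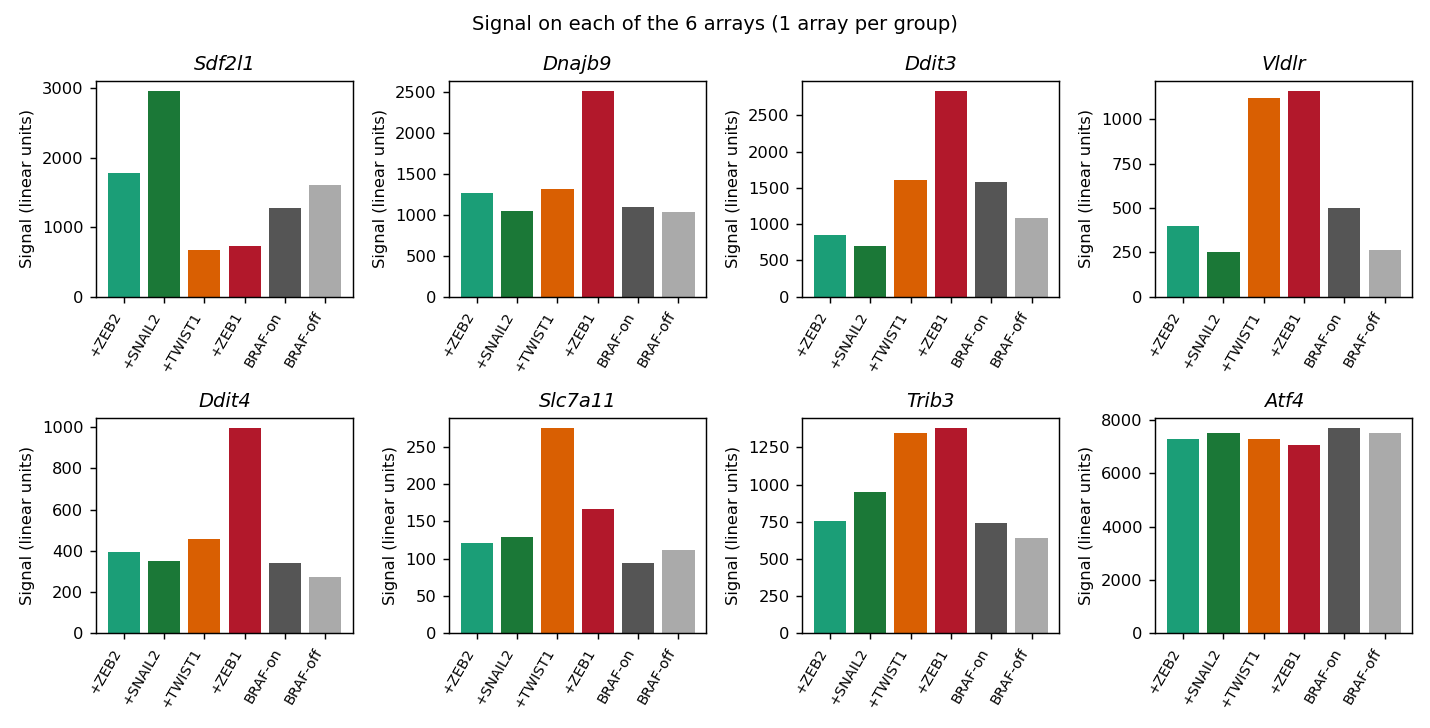
Signal in linear units (y axis) of 8 members on each of the 6 arrays (x axis), 1 bar per array, in the probe set used for each gene. Sdf2l1 is highest with SNAIL2 (2958), Dnajb9 (2508), Ddit3 (2829.7), Vldlr (1157), Ddit4 (996) and Trib3 (1381) with ZEB1 and Slc7a11 with TWIST1 (275), while Atf4 lies between 7065 and 7688.

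The 6 feedback and stress targets of ATF4 were all above 0 in BRAF-on against BRAF-off, with a median log2 ratio of 0.39, against 49.7% of all genes above 0. This depends on the probe set for Trib3, Sesn2 and Vldlr, which each had another, at -0.08, -0.06 and -0.01. Ppp1r15a, which encodes the phosphatase subunit GADD34 that reverses eIF2-alpha phosphorylation, was at 970.4 in BRAF-on against 636 in BRAF-off (1.53-fold). Chac1, an enzyme that breaks down glutathione, was at 629 in BRAF-on against 451 in BRAF-off, and Vldlr at 501 against 263. All 6 were also above 0 with ZEB1 against BRAF-on, with a median of 0.62, against 56.7% of all genes, and 5 of the 6 had their highest signal on that array. The other Sesn2 probe set was at -0.06 there, and some other probe sets of Trib3 and Vldlr were highest with TWIST1. Against BRAF-off the median of the 6 was 0.23 with ZEB2, 0.43 with SNAIL2, 0.87 with TWIST1 and 1.03 with ZEB1.

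Ddit4 encodes REDD1, an inhibitor of the growth kinase mTORC1 that hypoxia and hormones also raise. Its signal was 394 with ZEB2, 350.0 with SNAIL2, 458 with TWIST1 and 996 with ZEB1, against 341 in BRAF-on and 276 in BRAF-off. The array with ZEB1 alone was high, 2.93-fold above BRAF-on. Sesn2, another mTORC1 inhibitor, stood at 344 with ZEB2 and 479 with ZEB1, against 409 in BRAF-on, a span of 1.39-fold over the 6 arrays.

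Vldlr, a lipoprotein receptor whose gene ATF4 can raise, was at 398 with ZEB2, 254 with SNAIL2, 1118 with TWIST1 and 1157 with ZEB1, against 501 in BRAF-on and 263 in BRAF-off. The arrays with TWIST1 and ZEB1 were 2.23-fold and 2.31-fold above BRAF-on, and the array with SNAIL2 was level with BRAF-off. Its ratio of -0.98 with SNAIL2 was not shared by a dimmer probe set, at 0.12. Of its 6 probe sets, 3 were at least 2-fold higher with TWIST1 and 4 with ZEB1. Trib3, a pseudokinase that restrains ATF4, was at 758 with ZEB2, 949 with SNAIL2, 1349 with TWIST1 and 1381 with ZEB1, against 742 in BRAF-on and 644 in BRAF-off. It too was high on the arrays with TWIST1 and ZEB1, at 0.86 and 0.90 to BRAF-on, short of 2-fold. Against BRAF-off the probe set used was 2-fold higher or more on both, at a log2 ratio of 1.07 with TWIST1 and 2.15-fold with ZEB1. The other Trib3 probe set stayed under 2-fold on both, at 1328 with TWIST1 and 1220 with ZEB1 against 712 in BRAF-off. Chac1 was highest with TWIST1, at 906 against 629 in BRAF-on.

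The enzymes of amino acid synthesis ran differently from the feedback genes. Asns, asparagine synthetase, was at 4037 with ZEB2, 5645 with SNAIL2, 3872 with TWIST1 and 3071 with ZEB1, against 3515 in BRAF-on and 3338 in BRAF-off. It was highest with SNAIL2 in both its probe sets. The probe set used was lowest with ZEB1, while the other was lowest in BRAF-on and stood at 0.02 with ZEB1. Shmt2, the mitochondrial enzyme that draws one-carbon units from serine, was at 5238 with SNAIL2 and 2458 with ZEB1, against 3619 in BRAF-on, and all 4 of its probe sets lay below 0 with ZEB1. Psat1, in the serine synthesis route, was low on the array with ZEB1, at 4979.7 against 8676 in BRAF-on (log2 ratio -0.80), but its second probe set was at -0.02 there.

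In the probe sets used, all 4 enzyme genes lay below 0 with ZEB1 against BRAF-on, with a median of -0.38, against 43.3% of all genes below 0. Other probe sets stood at 0.02 for Asns, -0.02 for Psat1 and 1.001 for Phgdh, so the count rests on the choice of probe set. Phgdh, the first enzyme of the serine route, had only dim probe sets: the one used was at 90.1 with SNAIL2 and 135 with ZEB1, against 146 in BRAF-on. On the array with ZEB1 the 5 measured proliferation markers summed to 6577, against 21945 in BRAF-on and 24138 in BRAF-off. The 7 leukocyte markers summed to 1207 there, against 595 in BRAF-on, with Ptprc, Adgre1, Cd14 and Itgam under the floor on every array. The melanocyte markers summed to 28149, against 67003 in BRAF-on. Of the 6 fibroblast markers measured with ZEB1 against BRAF-on, 5 lay above 0 (56.7% of all genes) and 1 below, with a median of 0.37. Fap was 3.58-fold higher, while the 8 markers of that list summed to 8809 with ZEB1, against 6791 in BRAF-on. The part of any of these in the stress genes was not tested.

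Slc7a11 and Slc3a2 encode the 2 chains of the cystine-glutamate exchanger. Slc7a11 had a signal of 121 with ZEB2, 129 with SNAIL2, 275 with TWIST1 and 166 with ZEB1, against 94.4 in BRAF-on and 112 in BRAF-off. The array with TWIST1 was high, 2.91-fold above BRAF-on, in a dim probe set. A second probe set was at 113 with TWIST1 and under the floor in BRAF-on, so it gives only a bound. Slc3a2, the heavy chain, which also pairs with other transporters, was highest with SNAIL2, at 5954 against 3979 in BRAF-on. The 2 chains thus peaked on different arrays. On the array with TWIST1 the 8 fibroblast markers summed to a signal of 16533, against 6791 in BRAF-on, with Lum under the floor on every array and Pdgfra and Thy1 above it there at 105 and 96.6. Their part in the Slc7a11 and Vldlr results was not tested.

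Further genes of the same pathways were taken from 2 lists of 35 ER and 42 ATF4 genes, of which 34 and 39 had a probe set. With SNAIL2, 26 of 34 further ER genes lay above 0 (54.5% of all genes) with a median of 0.24, and 1 was at least 2-fold higher, a share below the 5.61% of all genes. This was Creb3l2, an ER-anchored relative of ATF6, at 2738 with SNAIL2 against 1261 in BRAF-on, and 1.70-fold higher than in BRAF-off. Not all ER genes followed: the translocon subunit gene Sec61b was at a log2 ratio of -0.90 with SNAIL2 while Sec61a1 was at 0.82. With ZEB1, 25 of 33 lay above 0 (56.7% of all genes) with a median of 0.16, and the ER lectin gene Erlec1 was at 3033 against 1491 in BRAF-on, 2.03-fold higher, a value that turned to a log2 ratio of -0.31 with the median of its 3 probe sets. A lean above 0 was also seen with ZEB2, at 27 of 33 further ER genes (49.2% of all genes) and a median of 0.10. It held with TWIST1 too, at 23 of 33 (50.4%) and 0.08, so it was not particular to SNAIL2. In BRAF-on against BRAF-off 23 of 33 were below 0 (50.3% of all genes), with a median of -0.08, and none was 2-fold apart. Each comparison with an added factor shares that BRAF-on array.

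Of the further ATF4 genes, Nupr1 varied most among the named ones. It encodes a small stress-induced chromatin protein that works with the ATF4 and CHOP branch. Its signal was 1354 with ZEB2, 662 with SNAIL2, 4596 with TWIST1 and 8336 with ZEB1, against 2376 in BRAF-on and 1889 in BRAF-off. The arrays with ZEB2 and SNAIL2 lay below both arrays without a factor and those with TWIST1 and ZEB1 above both, and the array with ZEB1 was 12.6-fold above that with SNAIL2. Atf3, a stress factor that ERK signalling also raises, was at 515 in BRAF-on against 202 in BRAF-off (2.55-fold), and at 305 with ZEB2, 278 with SNAIL2, 490.1 with TWIST1 and 876 with ZEB1. Its ratio of BRAF-on to BRAF-off stayed at least 2-fold in 7 of 8 alternatives. With the floor at the 75th percentile, however, it was at 0.11 on the log2 scale. Stc2, which encodes a stanniocalcin, was at 145 in BRAF-on against 71.6 in BRAF-off, just past 2-fold; it was under 2-fold in 4 of 7 alternatives, the lowest log2 ratio being 0.13. Cth, which makes cysteine, was at 193 with SNAIL2 against 403 in BRAF-on, a log2 ratio of -1.06. BRAF-on was itself at 0.98 over BRAF-off, and against BRAF-off the array with SNAIL2 was at -0.09.

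The further ATF4 genes as a list did not show these sizes. Their median was 0.06 in BRAF-on against BRAF-off over 36 genes, 0.02 with ZEB2, 0.24 with SNAIL2, 0.20 with TWIST1 and 0.05 with ZEB1, against medians of all genes between -0.00483 and 0.07. At 2-fold, 2 of 36 were higher in BRAF-on against BRAF-off (1.04% of all genes) and none was apart with ZEB2 (1.76% higher, 0.583% lower). With SNAIL2 2 of 36 were lower (6.42%), with TWIST1 none of 37 was apart (2.03% and 2.02%), and with ZEB1 1 of 38 was higher (4.49%).

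The elements printed above were set against the values. The 8 ERSE members lay between log2 ratios of -0.18 and 0.83 with SNAIL2, with 6 above 0 and a median of 0.24. Of the genes outside the 36 that hold an ERSE, 7 were measured in that comparison, and 6 of them lay above 0, with a median of 0.24 as well. Among all genes 54.5% lay above 0, with a median of 0.06. With TWIST1 the 6 measured outside genes all lay below 0, with a median of -0.31, while 5 of the 8 members lay above 0 (50.4% of all genes). In BRAF-on against BRAF-off 2 of the 8 members and 5 of 6 outside genes lay above 0 (49.7%). The ERSE counts with ZEB2 were 6 of 8 and 4 of 6 (49.2%), and with ZEB1 4 of 8 and 2 of 7 (56.7%). For ERSE-II with SNAIL2, the 2 members lay above 0 (median 0.50), but only 2 of 6 outside genes did (median -0.18). Outside ERSE-II genes above 0 numbered 3 of 6 in BRAF-on against BRAF-off, 2 with ZEB2, 5 with TWIST1 and 2 with ZEB1. The 6 members with the ATF4 element (Herpud1, Trib3, Chac1, Vldlr, Asns and Slc7a11) were all above 0 with TWIST1, with a median of 0.76. Of 235 other genes that hold it, 128 were above 0 with TWIST1, with a median of 0.05, as were 50.4% of all genes. The same 6 members were not high with TWIST1 alone. Of them, 5 were above 0 with ZEB1 (median 0.68), with SNAIL2 (0.40) and in BRAF-on against BRAF-off (0.15), and 4 with ZEB2 (0.12). The shares of all genes above 0 were 56.7%, 54.5%, 49.7% and 49.2% in that order.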

How the data were processed

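Amplified total RNA (3' IVT chemistry, per the labels' protocols) was read on 1-colour Affymetrix mouse arrays. The deposited values are linear intensities; the submitters' processing notes name MAS5 and Affymetrix Expression Console 1.1; genome build and detection calls are not given in the sources used here. Probe sets paired with 1 gene symbol were used (34945 of 45101), 34741 of them found in RefSeq by Entrez number, and each gene was read from the probe set whose log2 signal was highest on average over the 6 arrays. Values under the floor, the median of all non-control values (63.7), were raised to it, and genes under it on both arrays of a comparison were left out of that comparison. Log2 ratios were then taken without further normalization. The signal of a dim probe set is the less certain one, and the number of arrays limits all precision. The members and lists were chosen with earlier results of these data known. All 36 members are named. Further genes are named where at least 2-fold apart, up to 3 in each direction and comparison; Sec61b and Sec61a1 were named after their values were seen. Alternatives covered scaling, floor, probe set choice, size and comparison array. Promoters came from RefSeq (GRCm38.p6). Python 3.11.15, numpy 2.4.6 and pandas 2.3.3 were used.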

Additional observations from a re-analysis of the deposited data

Results flagged for a closer look

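Nupr1 moved at least 2-fold in opposite directions on 2 arrays with an added factor. Its log2 ratio to BRAF-on was 1.81 with ZEB1 and -1.84 with SNAIL2, a difference of 3.65 that does not depend on the BRAF-on array and was not tested, since each group has 1 array.

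Some probe sets that were not used for a member were at least 2-fold apart where the one used was not. With SNAIL2 against BRAF-on, the other 2 Calr probe sets stood at log2 ratios of 1.04 and 1.18, a dim Pdia3 probe set at 1.13 and a dim Hyou1 probe set at 1.84, where the ones used were at 0.83, 0.19 and 0.71. In BRAF-on against BRAF-off a dimmer Vldlr probe set was at 1.27, where the one used was at 0.93. With ZEB1 against BRAF-on a dim Phgdh probe set was at 1.001, where the one used was at -0.11.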

How the results depend on the processing

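No paired analysis was possible because each group has 1 array. Of 196 values of counts and medians under the alternatives, 160 stayed within 1.5 times (counts) or 0.1 on the log2 scale (medians), and of 1574 single-gene ratios 1537 stayed within 1.5-fold. The count lower with SNAIL2 became 2 with quantile normalization and with centring, as Vldlr passed 2-fold. With the floor at the 75th percentile the count higher with TWIST1 was 1 and the ATF4 median with ZEB1 0.16. Taking the median over a gene's probe sets, the counts were 1 higher for BRAF-on, 4 higher and 0 lower with SNAIL2 and 1 lower with TWIST1, and the ATF4 medians 0.13 with SNAIL2 and 0.25 with TWIST1. Without probe sets that match several transcripts, which leaves 29 members, 2 were higher with SNAIL2 and the ER median with TWIST1 was 0.13. At 3-fold all of these counts were 0. At 1.5-fold they were 2 higher for BRAF-on, 1 higher and 1 lower with ZEB2, 10 and 3 with SNAIL2, 4 and 3 with TWIST1 and 7 and 2 with ZEB1. Set against BRAF-off the counts were 0 and 0 with SNAIL2, 4 and 1 with TWIST1 and 5 and 1 with ZEB1, the ATF4 medians 0.15 with ZEB2, 0.27 with SNAIL2, 0.51 with TWIST1 and 0.51 with ZEB1, and the ER median with TWIST1 -0.13. Erlec1 with ZEB1 turned to -0.31 with the median of all probe sets. Except where an alternative sets the count by its own construction, the cause was not tested.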
